A study of Mus musculus with 15 samples.

Results

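Collagen and laminin chains, the main structural proteins of the extracellular matrix and of basement membranes, were followed in RNA from sorted mouse ventral midbrain cells. The members are every gene whose symbol names a collagen α chain (Col, a type number, a and a chain number) or a laminin α, β or γ chain. There were 54 of them, 43 collagens and 11 laminins, among the 21566 genes of the table of sorted cells. A second table, a time series, held 18 of them, 14 collagens and 4 laminins, among 10781 genes. The annotation (GENCODE M21) lists 55 such genes, and the remaining member, Col4a3, was not analysed here. The symbol rule itself uses no measured value, but the members were chosen with earlier results of these data known.

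Cells came from the ventral midbrain of Pitx3-GFP mice and were separated by fluorescence-activated cell sorting. In these animals green fluorescent protein (GFP) marks cells that use Pitx3, the gene of a transcription factor of midbrain dopamine neurons. All 5 groups share this genotype, and its zygosity and the purity of the sort are not given in the sources used here. The first experiment held GFP- and GFP+ cells of embryonic day 14 (E14), with 3 libraries each. The second, normalized separately, held 9 libraries of GFP+ cells: 3 from E14, 3 from embryonic day 16 (E16) and 3 from newborns (P0). Midbrains of 3 litters were used, and how litters map to libraries is not stated, so the p-values measure only the spread between these libraries, which may be technical. The cell type label reads dopamine neurons for the GFP- samples too. The 10 dopamine neuron markers summed to 5054 to 6554 normalized reads in the GFP- and 86250 to 97670 in the GFP+ libraries.

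Collagen chains wind into a rod-shaped helix in groups whose make-up is fixed by type. Fibrillar types form cables, type IV chains form the sheet of basement membranes, type VI chains form beaded filaments, fibril-associated types coat cables, and some types stay anchored in the cell membrane. Laminins are cross-shaped assemblies of an α, a β and a γ chain that start a basement membrane at the cell surface. In the brain, basement membranes lie under the pia and around blood vessels, and laminin is also a substrate on which axons grow.

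Promoter windows are shown for 2 pairs of neighbouring genes. Col4a1 and Col4a2 start next to each other and had log2 fold changes of -1.07 and 0.04 in the sort, and Col6a6 and Col6a5 lie side by side and had the largest log2 fold changes toward GFP+ cells among the 52 members with a mean of at least 5 normalized reads. The windows run from 250 bases before to 50 bases after the start of the gene (RefSeq, build GRCm38.p6, mouse), 5′ to 3′ on the strand of the gene. Capitals mark TATAAA (the TATA box), letters known as the CCAAT box, or GGGCGG (the GC box), read on either strand. Col4a1 lies at chr8:11312777-11313076 on the minus strand and Col4a2 at chr8:11312555-11312854 on the plus strand. Their starts are 21 bp apart on opposite strands, and each gene runs across the start of the other. Their exons share 22 bp, and the windows overlap. Col6a6 lies at chr9:105828036-105828335 and Col6a5 at chr9:105960594-105960893, both on the minus strand, with starts 132558 bp apart. The gene Col6a4, at chr9:105989454-106096783 on the same strand, lies beyond Col6a5 and was called lower in the sort (-0.99).
Col4a1: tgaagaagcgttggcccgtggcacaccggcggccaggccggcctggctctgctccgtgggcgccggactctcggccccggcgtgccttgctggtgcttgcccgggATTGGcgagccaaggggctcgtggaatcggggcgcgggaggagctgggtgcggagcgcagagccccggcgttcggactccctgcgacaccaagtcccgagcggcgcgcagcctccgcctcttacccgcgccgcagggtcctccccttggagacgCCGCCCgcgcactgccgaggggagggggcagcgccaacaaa
Col4a2: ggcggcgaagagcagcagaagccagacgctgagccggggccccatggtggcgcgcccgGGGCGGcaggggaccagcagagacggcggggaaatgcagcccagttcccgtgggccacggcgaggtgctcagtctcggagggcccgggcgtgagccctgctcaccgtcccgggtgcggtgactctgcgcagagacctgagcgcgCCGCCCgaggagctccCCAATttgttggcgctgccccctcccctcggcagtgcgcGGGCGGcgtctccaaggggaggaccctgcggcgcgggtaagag
Col6a6: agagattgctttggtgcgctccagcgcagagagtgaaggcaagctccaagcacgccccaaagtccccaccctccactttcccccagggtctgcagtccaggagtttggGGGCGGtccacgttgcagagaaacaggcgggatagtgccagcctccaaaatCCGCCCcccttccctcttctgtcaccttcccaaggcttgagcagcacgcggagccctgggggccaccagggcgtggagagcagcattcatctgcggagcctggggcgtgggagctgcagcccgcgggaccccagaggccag
Col6a5: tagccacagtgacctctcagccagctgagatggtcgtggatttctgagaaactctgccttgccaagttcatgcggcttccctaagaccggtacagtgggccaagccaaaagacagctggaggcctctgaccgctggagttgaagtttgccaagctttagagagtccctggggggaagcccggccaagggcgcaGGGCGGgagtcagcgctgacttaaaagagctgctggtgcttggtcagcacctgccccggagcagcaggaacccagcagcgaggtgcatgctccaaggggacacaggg

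None of these 4 windows held TATAAA. The Col4a1 and Col4a2 windows each held a CCAAT match, 145 bases before the start of Col4a1 and 32 bases before that of Col4a2, at different places. The GC box letters occurred 1 time in the Col4a1, 3 times in the Col4a2, 2 times in the Col6a6 and 1 time in the Col6a5 window. The Col4a1 match is also 1 of the Col4a2 matches, since it lies in the overlap of the windows. Windows of 40 member genes were counted (44 windows, as some genes have more than 1 start). Chromosome 18, where Lama3 lies, was left out of the member windows, and no such cut was made in the full set. GGGCGG was in 59.1% of the member windows and in 35.7% of all 32851 windows, CCAAT in 31.8% against 37.4%, and TATAAA in 11.4% against 13.6%. AAAGGTCA, the letters bound by Nr4a2, a nuclear receptor of dopamine neurons, was in 4.55% of the member windows (Col23a1 and Col24a1) and 1.51% of all. TAATCC, bound by Pitx proteins, was in 2.27% (Lamb2) and 7.06%. A match is a run of letters and no measured binding site.

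The whole-series facts that bear on these values are few. Summed over the listed genes, each sorted library held 17369191 to 22374153 reads and each time series library 17910017 to 33386535. The tables list 21566 and 10781 genes, so the ranges do not compare full depth. The members took 0.0699% to 0.0744% of the normalized reads of all listed genes in GFP- libraries and 0.0353% to 0.0402% in GFP+ libraries. In the time series table, whose lowest gene mean was 107 normalized reads, the 18 listed members took 0.0359% to 0.0410% at E14, 0.0492% to 0.0587% at E16 and 0.0985% to 0.121% at P0. Members with lower levels were not analysed here at E16 and P0.

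At E14 most of the collagen and laminin genes were lower in GFP+ than in GFP- cells, and a small set was higher. Of the 52 members with a mean of at least 5 normalized reads, 33 were lower, 6 were higher and 13 were not called (limma, Benjamini-Hochberg adjusted p under 0.05). Over all 18260 genes tested, 30.7% were called, 12.7% higher and 18% lower, while 75% of the tested members were called. The median log2 fold change was -1.17 over the members and 0.02 over all genes. GFP- and GFP+ libraries did not overlap for 38 of the 52, against 44.1% of all genes. Scaling every library to the same total left the member counts at 6 and 33, while the calls over all genes went from 2313 higher of 5599 to 1563 higher of 5571. The 6 higher genes were Col6a6, Col6a5, Col4a4, Col25a1, Col8a1 and Col9a2.

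**Figure D1:**
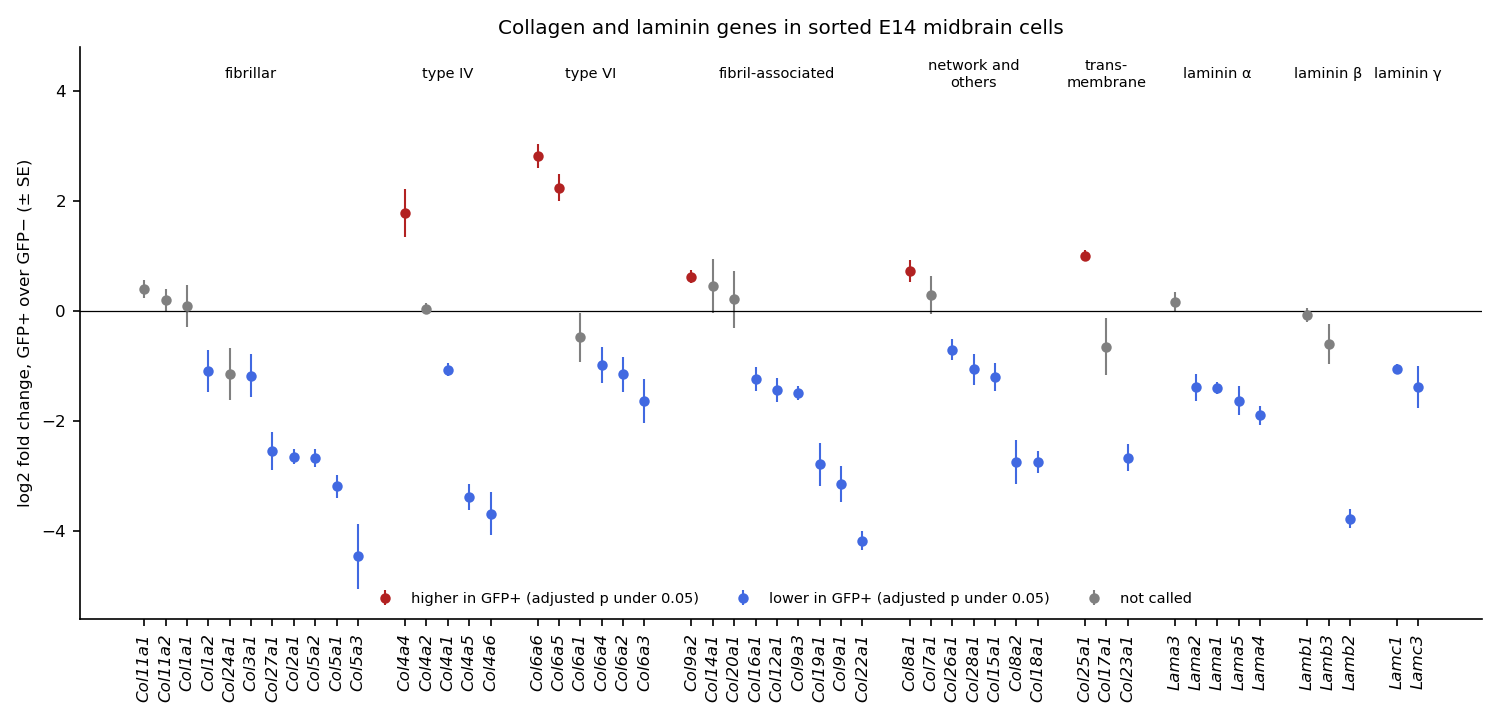
Log2 fold change of GFP+ over GFP- cells at E14 for 51 of the 52 tested members (vertical axis; points are fitted values, bars their SE), grouped along the horizontal axis by class. Col6a6 (2.82), Col6a5 (2.24) and Col4a4 (1.78) lie highest, and Col5a3 (-4.46), Col22a1 (-4.18) and Lamb2 (-3.78) lowest.

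Type VI collagen, which forms beaded filaments next to basement membranes, moved in both directions. Col6a6, a long chain that can take the place of the α3 chain, stood at 19.4, 14 and 16.6 normalized reads in the GFP- libraries and 129, 120 and 119 in the GFP+ libraries. Its neighbour Col6a5, another such long chain, stood at 16.2, 18.4 and 23.6 against 116, 87.0 and 82.9. In both genes every GFP+ library was above every GFP- library by a wide margin. The log2 fold change was 2.82 (SE 0.22, adjusted p = 1.93e-06) for Col6a6 and 2.24 (SE 0.25, adjusted p = 3.19e-05) for Col6a5. Other chains went the other way: Col6a2 (α2) had a log2 fold change of -1.15, Col6a3 (α3) -1.63 and Col6a4, also an α3-like chain, -0.99, each called lower. Col6a1, the α1 chain that classical type VI molecules contain, was at -0.48 (SE 0.45) and not called. The calls of Col6a2 and Col6a4 were lost when certain single libraries were left out (adjusted p up to 0.0976 and 0.128).

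Type IV collagen, the sheet of the basement membrane, gave calls in both directions. Col4a1 and Col4a2 encode the α1 and α2 chains, which join in a fixed proportion of more α1 than α2. Col4a1 stood at 623, 670 and 683 normalized reads in the GFP- libraries and 358, 324 and 265 in the GFP+ libraries, without overlap. Col4a2 stood at 554, 662 and 649 against 633, 687 and 593, and the groups overlapped. The log2 fold changes were -1.07 (SE 0.12, adjusted p = 3.71e-05) for Col4a1 and 0.04 (SE 0.10, adjusted p = 0.813) for Col4a2. The X-linked pair Col4a5 and Col4a6, chains of specialised basement membranes, was lower by far, with log2 fold changes of -3.39 (SE 0.24) and -3.69 (SE 0.39). Col4a6 rested on 151 recovered reads over the GFP- and 8 over the GFP+ libraries. Col4a4, a chain that assembles with those of Col4a3 and Col4a5 in the kidney, was higher at 1.78 (SE 0.43, adjusted p = 0.00781), with 9 reads over the GFP- and 35 over the GFP+ libraries.

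Among fibrillar collagens 7 of 11 were lower and none was higher. Col2a1, the cable collagen of cartilage (chromosome 15, 97975602 to 98004695), stood at 1961, 1914 and 2255 normalized reads in the GFP- libraries and 407, 263 and 317 in the GFP+ libraries. Every GFP+ library lay far below every GFP- library, and the log2 fold change was -2.65 (SE 0.14, adjusted p = 8.22e-08). The type V chains, which start and limit the width of collagen I cables, were all lower: Col5a1 at -3.19 (SE 0.21) and Col5a2 at -2.68 (SE 0.16) on the log2 scale. Col5a3 stood at 40.9, 41.1 and 21.9 against 0, 2.78 and 0. That is 110 reads against 3, a ratio of GFP- to GFP+ of 32.6 with a 95% exact interval of 10.9 to 160.0 that covers counting error only. Col27a1, a fibrillar collagen of cartilage, was lower at -2.55 (SE 0.34). Col11a1 and Col11a2, the minor chains that join type II cables, were not called, at 0.40 (SE 0.16, adjusted p = 0.0761) and 0.19 (SE 0.20, adjusted p = 0.506). Without GFP- library 1, Col11a1 was called higher at 0.54 (adjusted p = 0.0149). It was also called higher by limma with a block for library number (0.40, adjusted p = 2.87e-05), but whether the numbers pair the libraries was not settled.

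The collagens of skin, tendon and bone gave weak and uneven values. Col1a1, the α1 chain of type I, stood at 10.8, 12.3 and 13.1 against 8.38, 15.7 and 15.9 normalized reads, with overlapping groups. Col1a2, its partner, and Col3a1 were called lower at -1.10 (SE 0.38, adjusted p = 0.0461) and -1.18 (SE 0.39, adjusted p = 0.0389), but the groups of Col1a2 overlapped. Both calls were lost when any of several libraries was left out, with adjusted p up to 0.163 and 0.150, and edgeR on recovered reads gave 0.0508 for Col1a2. Col24a1 was not called (-1.15, SE 0.47), but without GFP- library 3 it was called lower at -1.63 (adjusted p = 0.0198). With the block for library number, limma called it lower too (-1.15, adjusted p = 0.0173).

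Fibril-associated collagens, which coat cables, were lower in 6 of 9 cases. Col22a1, known from junctions of muscle and tendon (chromosome 15, 71795795 to 72034227), stood at 1029, 1148 and 1217 normalized reads in the GFP- libraries and 80.2, 58.3 and 48.9 in the GFP+ libraries, and the log2 fold change was -4.18 (SE 0.17, adjusted p = 1.11e-08). Col19a1, which mouse hippocampal interneurons use, was at -2.79 (SE 0.39) and Col12a1, a tendon and ligament collagen, at -1.44 (SE 0.22). Col16a1 was lower as well (-1.24), and Col14a1 (0.45) and Col20a1 (0.21) were not called.

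The chains of type IX, a coat of cartilage cables, parted. Col9a2 (chromosome 4, 121039385 to 121055322) stood at 454, 603 and 517 normalized reads in the GFP- libraries and 899, 798 and 716 in the GFP+ libraries, with all GFP+ libraries higher. Col9a3 stood at 468, 462 and 392 against 170, 157 and 141, with all GFP+ libraries lower. The log2 fold changes were 0.62 (SE 0.12, adjusted p = 0.00253) for Col9a2, -1.49 (SE 0.13, adjusted p = 3.60e-06) for Col9a3 and -3.15 (SE 0.32) for Col9a1, whose GFP+ libraries held 4.25 to 7.18 normalized reads. Col9a3 shares 234 bp of exon, 6.07% of its length, with Tcfl5 on the opposite strand, and the use of strand in counting is not given in the sources used here.

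Of the remaining collagens, Col25a1 had the highest reads of all members in GFP+ cells. It encodes a membrane-anchored collagen that mouse motor neurons need to reach muscle (chromosome 3, 130131501 to 130599877, GRCm38). It stood at 875, 993 and 805 normalized reads in the GFP- libraries and 1593, 1900 and 1851 in the GFP+ libraries, a log2 difference of 1.0 (SE 0.10, adjusted p = 1.65e-05) with no overlap. Col23a1, another membrane-anchored collagen, was lower at -2.67 (SE 0.25), and Col17a1, a hemidesmosome component, was not called (-0.65, SE 0.52). Col8a1, a short-chain network collagen of the cornea and vessels, was higher at 0.72 (SE 0.20, adjusted p = 0.02), a call lost without any of 3 libraries (adjusted p 0.0575 to 0.0866). Its partner Col8a2 was lower at -2.74 (SE 0.40). Col18a1, the heparan sulfate-bearing collagen whose end fragment is endostatin, and Col15a1, its relative, were lower at -2.75 (SE 0.20) and -1.2 (SE 0.26). Col26a1 (-0.71) and Col28a1 (-1.06) were called lower, both with calls lost when single libraries were left out (adjusted p up to 0.0733 and 0.0634). Col7a1, the anchoring fibril collagen of skin, was not called (0.29). Below the minimum mean were Col10a1, a cartilage collagen, with 1 recovered read over GFP- and 18 over GFP+ libraries, and Col13a1 with 10 and 5. The Col10a1 reads were 1, 0 and 0 in the GFP- and 9, 1 and 8 in the GFP+ libraries. Its groups overlapped, with GFP+ library 2 at 0.925 normalized reads and GFP- library 1 at 1.08. For Col10a1 the authors' deposited table gives a log2 fold change of 4.31 (adjusted p = 0.0301).

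**Figure D2:**
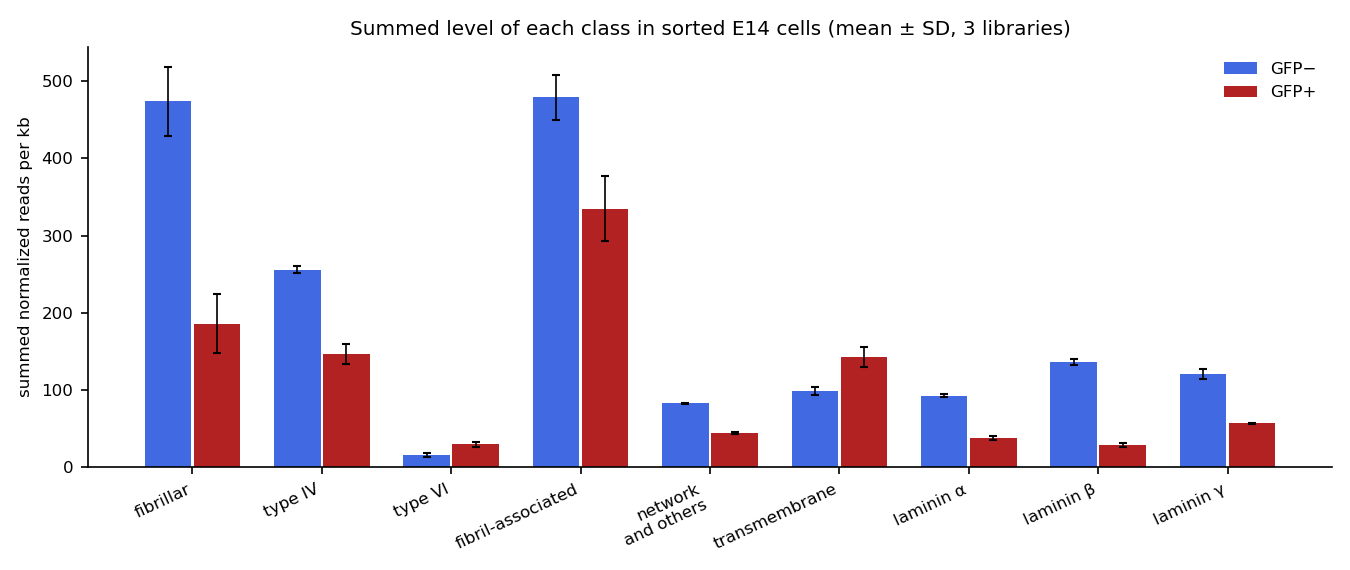
Normalized reads per kb of merged exon, summed over the members of each class (vertical axis; bars are means, whiskers SD, of 3 libraries per group), in GFP- and GFP+ cells at E14. Type VI (15.6 against 29.5) and membrane-anchored collagens (98.3 against 143) are the classes with the higher sum in GFP+ cells, and laminin β chains stood at 136 against 28.6.

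Laminin chains were lower in 8 of 11 cases and higher in none. Lamb2, the β2 chain of synaptic and pial basement membranes (chromosome 9, 108479736 to 108490530), stood at 704, 655 and 717 normalized reads in the GFP- libraries and 63.4, 48.1 and 39.3 in the GFP+ libraries, for a log2 difference of -3.78 (SE 0.17, adjusted p = 2.31e-08). Lamb1, the β1 chain that early laminins use in its place (chromosome 12, 31265234 to 31329644), stood at 198, 195 and 178 against 171, 200 and 172. Its groups overlapped and it was not called, at -0.07 (SE 0.13, adjusted p = 0.719). Lamc1, the γ1 chain of most laminins, stood at 888, 887 and 993 against 451, 433 and 436, for a log2 difference of -1.06 (SE 0.09, adjusted p = 3.25e-06). Lama1, the α1 chain of the early embryo, stood at 572, 487 and 533 against 212, 197 and 187, at -1.41 (SE 0.11, adjusted p = 2.03e-06). For Lamb2, Lamc1 and Lama1 all GFP+ libraries were below all GFP- libraries. Lama4 (-1.90), an α chain of vessels, Lama5 (-1.63) and Lama2 (-1.39), an α chain of muscle and nerve, were lower as well. Lama3 (0.16, SE 0.18) and Lamb3 (-0.60, SE 0.36), chains of laminins that anchor skin, were not called. Lamc3 (-1.38) lost its call without either of 2 libraries (adjusted p 0.0589 and 0.0705).

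Per length, the order of the levels differed between the sorted groups. In GFP+ cells Col9a2 came first with 260 ± 29.6 normalized reads per kb of merged exon (mean ± SD, n = 3), then Col25a1 with 138 ± 12.8, Col4a2 with 96.3 ± 7.06 and Col11a1 with 80.2 ± 17.0. Col9a2 and Col25a1 differed by more than either SD, while Col4a2 and Col11a1 did not. In GFP- cells Col2a1 came first with 221 ± 20.0, then Col9a2 with 170 ± 24.1, Col22a1 with 123 ± 10.3, and Col9a3 and Lamb2 with 114 ± 11 and 114 ± 5.42. Col22a1 and Col9a3 differed by less than either SD. The sum over all 54 members was 1760 ± 24.1 in GFP- and 1010 ± 88.1 normalized reads per kb in GFP+ cells. The length used changes these orders. Per kb of longest transcript the levels in GFP+ cells were 275 for Col9a2, 266 for Col25a1, 133 for Col11a1 and 98.9 for Col4a2. In GFP- cells they were 400 for Col2a1, 179 for Col9a2, 150 for Col5a2, 145 for Col9a3, 133 for Col25a1, 128 for Col22a1 and 123 for Lamb2.

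Markers of other cell types, both types that make matrix and types such as erythroid cells, were mostly lower in GFP+ cells as well. The 12 endothelial markers summed to 840.6 to 938.9 normalized reads in GFP- and 549.2 to 589.4 in GFP+ libraries, and 10 of the 12 were called lower. Kdr, not called at 0.21, made up 302.9 ± 25.3 of the sum in GFP- and 351.2 ± 36.5 in GFP+ cells, and the other 11 summed to 524.2 to 620.4 against 175.9 to 280.3. Of 11 mural (pericyte and smooth muscle) markers 10 were lower, summing to 1997 to 2186 against 328.6 to 450.6. Of 10 tested meningeal and perivascular fibroblast markers 6 were lower and Twist1 was higher, the 12 in the table summing to 2009 to 2265 against 268.0 to 356.2. Lum, too low to be tested, stood at 4.13 ± 2.06 normalized reads in GFP- cells and at 0 in every GFP+ library. All 12 radial glia and progenitor markers were lower (76880 to 91640 against 7320 to 8901), as were all 8 erythroid markers (13820 to 14990 against 318.3 to 506.1). Of 9 tested microglia and macrophage markers 8 were lower and Mrc1 was higher, the 10 in the table summing to 662.0 to 819.4 against 166.9 to 252.6. The part of these cells in the lower collagen and laminin values was not tested, and in bulk samples fewer cells of a type and less RNA per cell cannot be told apart.

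The genes that handle these proteins were followed through 5 lists, to be read against 12.7% of all genes called higher and 18% lower. Of 14 tested other basement membrane genes 9 were lower and 1 was higher: Fbln2 (log2 fold change -4.07), Sparc (-3.55), Nid2 (-2.69) and Hspg2, the perlecan gene (-2.68), against Agrn, the agrin gene (0.34). Of 26 genes of collagen folding and modification 11 were lower, among them Loxl3 (-3.37), Fkbp10 (-3.25), Plod1 (-3.10) and Serpinh1, the collagen chaperone (-2.83), and Colgalt2 alone was higher (0.48). Of 16 receptors 11 were lower, among them Adgrg6 (-4.85), Itga2 (-4.26), Itga7 (-4.05) and Mcam (-3.06). The 2 higher receptors were Itga11, a collagen-binding integrin chain, with 13.6 ± 10.6 normalized reads in the GFP- group against 547 ± 89.6 in the GFP+ group (5.56, SE 0.50, adjusted p = 5.28e-06), and Itga3, a laminin-binding chain (0.97). Of 21 matrix proteases and inhibitors 7 were higher, led by Tll1 (1.96), Adamts9 (1.55), Adamts5 (1.52) and Adamts2 (1.34), and 11 lower, led by Timp4 (-4.57), Timp3 (-4.20), Adamts3 (-3.57) and Adamts1 (-2.08). Of 10 genes that add the laminin-binding sugar to dystroglycan, 1 was lower (Pomt2, -0.54) and the others were not called.

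In GFP+ cells most of the listed collagens and laminins rose between E14 and birth. From E14 to P0 14 of the 18 rose, Lama1 fell and 3 were not called, with 55.7% of all 10781 genes called, 25.1% higher and 30.6% lower. The median log2 fold change was 1.2 over the members and -0.05 over all genes. For 15 of the 18 the libraries of the ages did not overlap (65.2% of all genes). The summed level of the 18 was 1220 ± 38.5 normalized reads per kb at E14, 1390 ± 118 at E16 and 2880 ± 92.9 at P0. The ages of the series share their E14, E16 and P0 libraries across the comparisons, so their values are given side by side. From E14 to E16 7 members rose and 3 fell (33% of all genes called, 15.2% higher and 17.8% lower), and 11 had no overlap (46.4% of all genes). Without E14 library 3 the number that fell was 1, and without P0 library 3 it was 5, with Col11a2 and Col9a3 added. Over all genes 2739 and 3722 were then called, against 3557 with all libraries. From E16 to P0 14 rose and none fell by limma (33.4% of all genes called, 16.8% higher and 16.6% lower), and 15 had no overlap (44.8% of all genes). The change after E16 exceeded the change before it for 7 members and was smaller for 1, with 13.6% of all genes called, 8% higher and 5.62% lower. Without E16 library 3 it exceeded it for 4 and was smaller for 0. Over all genes 625 were then called (398 higher), against 1468 (862 higher) with all libraries.

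**Figure D3:**
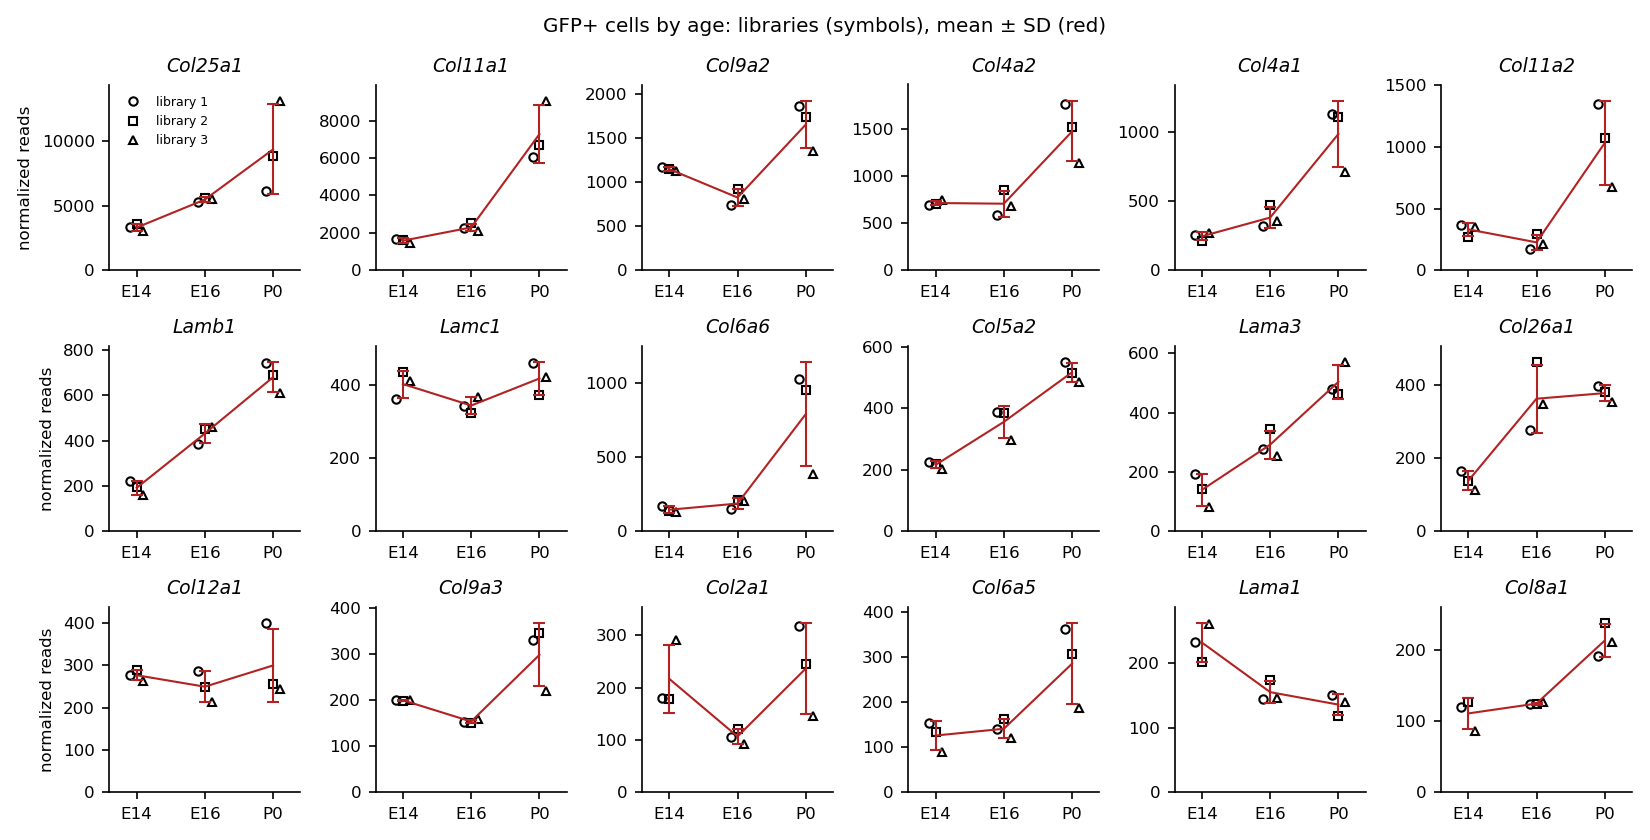
Normalized reads of the 18 listed members in GFP+ cells at E14, E16 and P0, each panel with its own linear axis from 0. Symbols are the 3 libraries of an age and red lines join the means with SD bars. Col11a1 runs from 1441 to 9022 over the libraries, whereas Lama1 has all P0 libraries below all E14 libraries.

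Of the 4 listed fibrillar chains 3 rose from E14 to P0. Col11a1 (chromosome 3, 114030540 to 114220718) stood at 1677, 1646 and 1441 normalized reads at E14, 2269, 2513 and 2104 at E16, and 6080, 6716 and 9022 at P0. The ages did not overlap, and the log2 fold change was 0.53 (SE 0.12) to E16, 1.65 (SE 0.12) from there to P0 and 2.18 (SE 0.12, adjusted p = 8.48e-09) in all. Its partner Col11a2 stood at 369, 273 and 353, then 176, 292 and 213, then 1342, 1074 and 674. It was not called before E16 (-0.57, SE 0.23, adjusted p = 0.0689) and rose by 2.15 (SE 0.23) after it. Its lower value at E16 was called when E16 library 2, P0 library 1 or P0 library 3 was left out (adjusted p = 0.0193, 0.0455 and 0.0227) and with only the 2 ages compared (adjusted p = 0.0346). Col2a1 stood at 180, 179 and 291, then 107, 121 and 92.7, then 319, 245 and 147, so that it fell to E16 (-0.98, SE 0.25), rose after it (1.08, SE 0.25) and ended not called against E14 (0.09, SE 0.25). Its fall to E16 was not called without E14 library 3 (adjusted p = 0.0502). Col5a2 rose in both intervals (0.71 and 0.55, SE 0.12 each), to 1.25 in all.

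Membrane-anchored Col25a1 stood at 3373, 3542 and 3005 normalized reads at E14, 5254, 5622 and 5521 at E16, and 6159, 8812 and 13037 at P0. Each age was above the one before, and the log2 fold change was 0.73 (SE 0.18), 0.71 (SE 0.18) and, in all, 1.43 (SE 0.18, adjusted p = 1.45e-05). Per kb it passed Col9a2, from 255 ± 21.2 against 371 ± 7.42 at E14 to 422 ± 14.7 against 267 ± 29.8 at E16. At P0, per kb of merged exon, Col25a1 (721 ± 268), Col11a1 (571 ± 122) and Col9a2 (534 ± 84.7) came first and did not differ by more than the SD of Col25a1. Per kb of longest transcript Col25a1 was already first at E14, with 493 against 392 for Col9a2. On that length the P0 levels lay further apart, at 1390 for Col25a1, 949 for Col11a1 and 565 for Col9a2.

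Both listed type VI chains rose after E16. Col6a6 stood at 173, 137 and 129 normalized reads at E14, 149, 212 and 204 at E16, and 1033, 953 and 391 at P0. All P0 libraries were above all earlier ones, with a log2 fold change of 1.96 (SE 0.28) from E16 and 2.32 (SE 0.28, adjusted p = 1.04e-05) from E14. Col6a5 stood at 154, 133 and 90.5, then 140, 163 and 121, then 362, 307 and 187, a change of 1.15 (SE 0.24, adjusted p = 0.001) from E14 to P0. Neither was called from E14 to E16, at 0.36 (SE 0.28) and 0.19 (SE 0.24).

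In type IV collagen, Col4a1 stood at 256, 215 and 270 normalized reads at E14, 318, 471 and 359 at E16, and 1133, 1113 and 715 at P0. Col4a2 stood at 694, 705 and 741, then 582, 851 and 685, then 1765, 1513 and 1134. Col4a1 rose in both intervals, by 0.62 (SE 0.18) and 1.35 (SE 0.18), and Col4a2 was called after E16 (1.05, SE 0.15) but not before it (-0.03, SE 0.15). The first rise of Col4a1 was not called without E14 library 2 or without E16 library 2 (adjusted p = 0.0735 and 0.0662). From E14 to P0 the changes were 1.97 (SE 0.18, adjusted p = 6.56e-07) and 1.02 (SE 0.15, adjusted p = 6.16e-05).

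Laminin chains went apart. Lamb1 stood at 221, 194 and 161 normalized reads at E14, 385, 450 and 460 at E16, and 740, 687 and 611 at P0, rising by 1.17 (SE 0.13) and then 0.65 (SE 0.13). Lama3, an α chain of laminins that anchor skin, stood at 193, 144 and 83.3, then 279, 345 and 254, then 480, 463 and 570, a change of 1.92 (SE 0.23, adjusted p = 9.43e-06) from E14 to P0. Its second rise (0.79, SE 0.23) was not called without E16 library 3 or P0 library 3 (adjusted p = 0.0753 and 0.0595). Both genes had no overlap between ages. Lama1 stood at 233, 202 and 261, then 145, 175 and 146, then 151, 118 and 140, falling by 0.57 on the log2 scale to E16 and by 0.77 in all (SE 0.15 each, adjusted p = 0.0111 and 0.000813). Its fall to E16 was not called without E14 library 3 (adjusted p = 0.0553). Lamc1 stayed between 323 and 460 normalized reads in all 9 libraries and was not called from E14 to P0 (0.05, SE 0.12).

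Of the remaining members, Col9a2 stood at 1170, 1146 and 1124 normalized reads at E14, 741, 924 and 812 at E16, and 1859, 1739 and 1356 at P0. It fell to E16 (-0.48, SE 0.11) and rose after it (0.99, SE 0.11). Col9a3 was at 198 to 201, then 150 to 158, then 219 to 344, and was called after E16 (0.92, SE 0.16) but not before it (-0.38, SE 0.16, adjusted p = 0.0871). Its E14 and E16 libraries did not overlap, and its lower value at E16 was called without P0 library 3 (adjusted p = 0.027) and with only the 2 ages compared (adjusted p = 0.0454). Its rise from E14 to P0 (0.55, SE 0.16) was not called without P0 library 2 (adjusted p = 0.0593). Col26a1, first described in mouse testis and ovary, was at 113 to 164, then 278 to 462, then 355 to 398. It rose early (1.37, SE 0.18) and was not called after E16 (0.09, SE 0.18). Col8a1 was at 86.1 to 126 at E14, 124 to 126 at E16 and 192 to 238 at P0, a change of 0.95 (SE 0.17) from E14 to P0. Col12a1 was not called in any interval (0.08, SE 0.17, from E14 to P0).

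The third P0 library stood apart for these genes. It was the lowest at P0 for 12 of the 18 members, among them Col6a6 and the type IV pair, and the highest for Col11a1, Col25a1 and Lama3. In the same library Slc6a3, the dopamine transporter gene, stood at 41949 normalized reads against 20001 and 28473 in the other P0 libraries. It is 1 of 10 dopamine neuron markers, of which 3 rose and 6 fell from E14 to P0. The other dopamine neuron markers, and the radial glia gene Vim, were not compared between the P0 libraries here. In P0 library 3 Fabp7, a radial glia gene, stood at 3293 against 1438 and 1081, but Nes, another such gene, at 227.6 against 284.9 and 213.1. Mrc1, listed as a macrophage gene, stood at 799.5 against 240.1 and 484.1. In the sort Mrc1 was higher in GFP+ cells, while the 8 other tested markers of its list were lower. Without P0 library 3, 14 members still rose and 1 fell from E14 to P0. The changes were then 2.76 for Col6a6, 2.19 for Col4a1 and 1.16 for Col25a1. Of the markers, 3 radial glia genes had a time series value: from E14 to P0 Fabp7 changed by 1.19, Nes by -1.30 and Vim by -1.62 on the log2 scale. Mrc1 was not called (0.66, adjusted p = 0.07). The markers of endothelial, mural, fibroblast and erythroid cells were not analysed here in the time series, and the part of other cells in the rise was not tested.

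**Figure D4:**
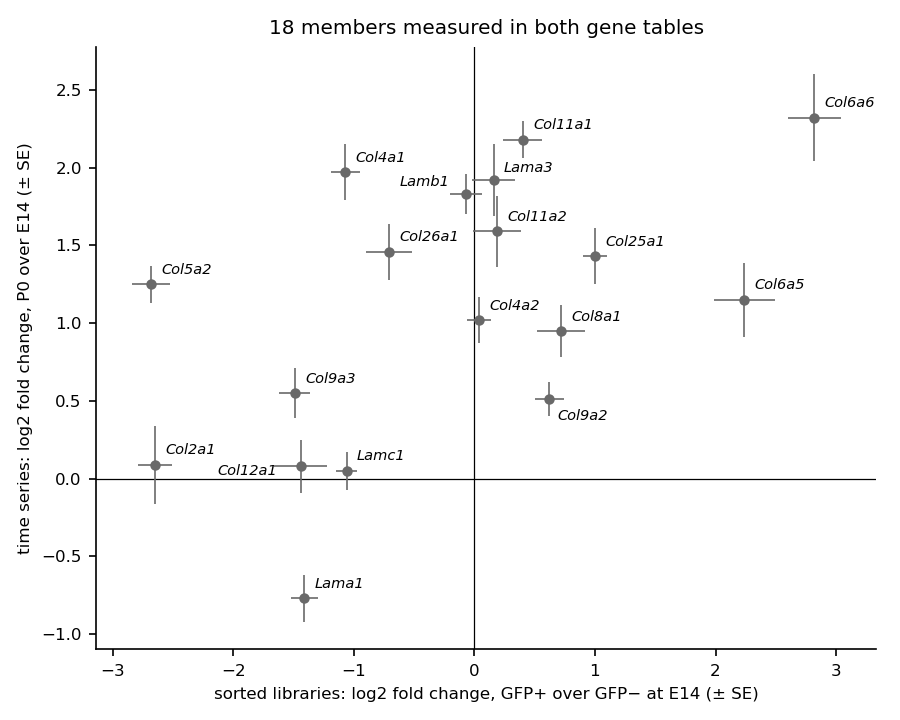
Log2 fold change of GFP+ over GFP- cells at E14 (horizontal) against that of P0 over E14 in GFP+ cells (vertical) for the 18 members in both tables, with SE bars. Col6a6 lies at the upper right (2.82, 2.32), Col5a2 at the upper left (-2.68, 1.25) and Lama1 at the lower left (-1.41, -0.77).

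Set against the sort, the listed members that rose with age came from both sides. The same split over all genes was not counted. The time series table holds GFP+ libraries only, with a lowest gene mean of 107 normalized reads. It leaves out most of the 33 members lower in the sort, but of the 6 higher only Col4a4. Of the 14 that rose from E14 to P0, 5 had been higher in GFP+ cells at E14 (Col25a1, Col6a5, Col6a6, Col8a1 and Col9a2), 4 lower (Col26a1, Col4a1, Col5a2 and Col9a3) and 5 not called (Col11a1, Col11a2, Col4a2, Lama3 and Lamb1). Lama1 was lower in the sort and fell with age. Col12a1, Col2a1 and Lamc1 were lower in the sort and not called with age. The GFP+ libraries of the sort and those of the time series are different libraries.

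Ratios within a library do not depend on how that library was scaled, and 4 pairs of chains that belong to the same type were compared that way, per kb. The ratio of Col4a1 to Col4a2 was 0.997, 0.899 and 0.933 in GFP- and 0.501, 0.418 and 0.396 in GFP+ cells at E14. In the time series it was 0.327, 0.271 and 0.323 at E14, 0.485, 0.490 and 0.464 at E16, and 0.569, 0.652 and 0.559 at P0. No P0 library overlapped an E14 or E16 library. The E14 GFP+ libraries of the 2 tables, which were normalized apart, did not overlap each other either, at 0.396 or more against 0.327 or less. Nor did they for Col9a2 to Col9a3 (6.3 to 6.58 in the sort, 6.96 to 7.31 in the series) or Col11a1 to Col11a2 (1.79 to 2.04, then 2.2 to 3.25). For Col6a5 to Col6a6 they overlapped. The ratio of Col9a2 to Col9a3 was 1.49 ± 0.246 in GFP- and 6.40 ± 0.159 in GFP+ cells, and 7.16 ± 0.179, 6.70 ± 0.842 and 7 ± 0.703 at E14, E16 and P0, where the ages overlapped. The ratio of Col6a5 to Col6a6 was 1.16 ± 0.305 against 0.752 ± 0.107 in the sort with overlap, and in the series it went from 0.833 ± 0.137 at E14 to 0.374 ± 0.0816 at P0 without overlap. The ratio of Col11a1 to Col11a2 was 1.69 ± 0.0612 in GFP- and 1.95 ± 0.141 in GFP+ cells, without overlap. In the series it went from 2.63 ± 0.55 at E14 to 5.65 ± 1.19 at E16 without overlap, and at P0 it ran from 2.44 to 7.22 and overlapped both earlier ages. Over the 16 comparisons of these ratios no exact two-sided permutation test could give less than p = 0.1 with 3 libraries a group, which every comparison without overlap reached (0.178 after Benjamini-Hochberg adjustment).

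**Figure D5:**
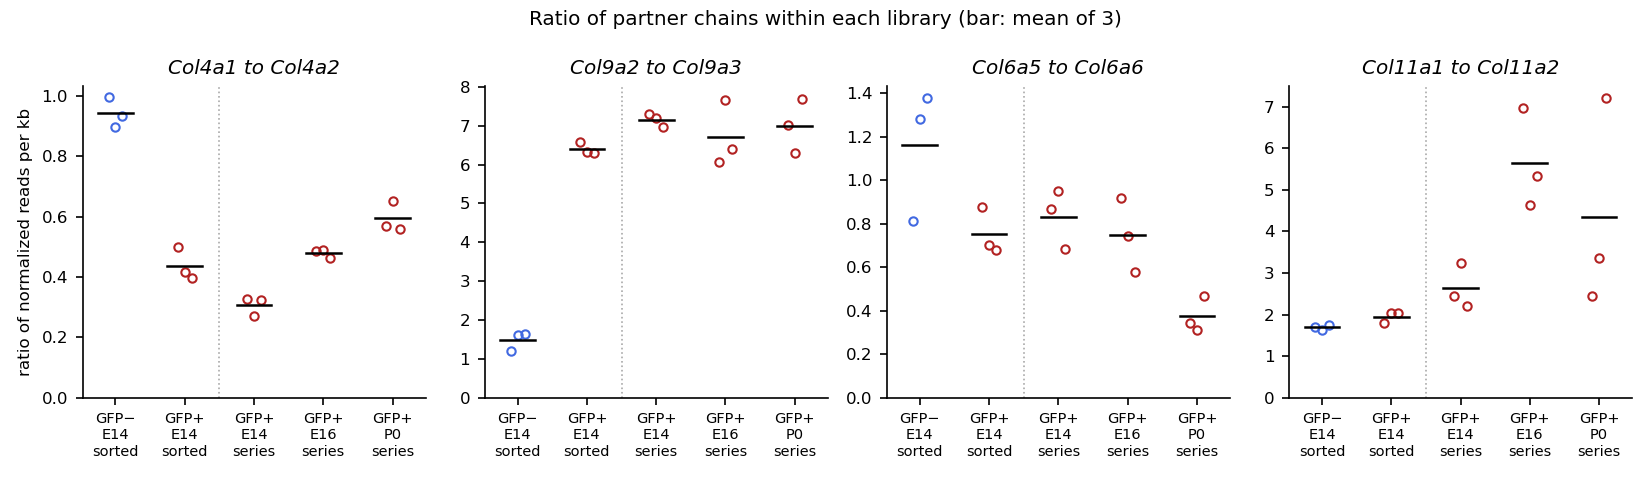
Ratio of normalized reads per kb between 2 chains of a type in every library (circles; bars are means of 3), with the sorted libraries left and the time series right of the dotted line. Col4a1 to Col4a2 lies near 0.943 in GFP- cells and between 0.271 and 0.652 in all GFP+ libraries.

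The partner lists were counted with age in the same way, to be read against 25.1% of all genes called higher and 30.6% lower from E14 to P0. From E14 to P0, 2 of 4 other basement membrane genes rose (Smoc1, 1.46, and Npnt, a nephronectin, 0.66) and 2 fell (Ntn4, -1.04, and Agrn, -0.28). Of 8 receptors Itga6, a laminin-binding integrin chain, rose (0.83), and 5 fell, among them Itga11 (-1.81), Adgrg1 (-1.01), Ddr1 (-0.66) and Rpsa (-0.38). Of 14 folding and modification genes P3h3 rose (0.53) and 4 fell: Plod2 (-0.87), P4ha1 (-0.70), P4hb (-0.57) and Pxdn (-0.48). Of 11 proteases and inhibitors 3 rose (Tll1, 1.41, Mmp16, 0.78, and Timp2, 0.69) and 2 fell (Bmp1, -1.31, and Mmp15, -1.28). Of 10 dystroglycan glycosylation genes 5 rose, among them B4gat1 (0.79), Pomgnt2 (0.74), Pomt2 (0.30) and Pomgnt1 (0.22), and none fell by limma.

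In the authors' deposited table, 7 of the 54 members were higher and 32 lower in GFP+ cells at E14 at an adjusted p under 0.05, where 26.5% of genes with a value passed. From E14 to E16 the authors' deposited table called 7 members higher and 3 lower (34.6% of genes), from E16 to P0 14 higher and 0 lower (36.1%), and from E14 to P0 14 higher and 1 lower (56.3%).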

How the data were processed

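RNA of the sorted cells was freed of ribosomal RNA and made into ScriptSeq v2 libraries, per the labels. Per the submitters' processing notes Trim Galore, TopHat2 and DESeq2 were used with GRCm38 or mm10. The read counter, its use of strand and all versions are not given in the sources used here. The deposited gene values are normalized reads, a signal in which the authors divided each library by a constant. In every library all values were whole multiples of a step (within 0.1), which gave the reads per library in the listed genes. The authors' log2 fold changes and p-values, as deposited, are named as the authors' deposited table where used. No column of per-sample values was left unused (0 columns).

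Sorted columns carry a number that matches 1 sample's title and another sample's description, so they were used as libraries of their group, named by column number. Genes with a mean of at least 5 entered a two-sided limma-trend test, run in R 4.3.3 with limma 3.58.1. Its input was log2 of normalized reads after adding a pseudocount of 1. Benjamini-Hochberg adjustment ran over all genes, and an adjusted p under 0.05 was called. Fold changes are on that scale, which understates the change of low genes. The 6 sorted and 9 time series libraries were fitted separately, and a further contrast took the change after E16 minus the change before it. Lengths and positions come from GENCODE M21 on GRCm38, promoters from RefSeq. Scripts were tested on simulated data. Alternatives were other pseudocounts, filters and scalings, a replicate block, robust moderation, only the 2 ages compared, leaving out each library, edgeR 4.0.16 on recovered reads, and transcript length.

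The members, the lists and the rule for named genes were chosen with earlier results of these data known. The text names every member of the time series table. From the sort it names the 12 with the highest mean, up to 8 per direction with the largest change past the threshold and the chains that join them. From a partner list it names up to 4 genes per direction. The remaining members are named to account for all of them. The values of 1 laminin chain are not reported here; it stays in the counts.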

Additional observations from a re-analysis of the deposited data

Results flagged for a closer look

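For 8 members the change from E16 to P0 differed from the change from E14 to E16, by limma's test of that difference across all genes, where 13.6% of genes passed (8% higher, 5.62% lower). The difference on the log2 scale was 2.72 (SE 0.39, adjusted p = 0.00093) for Col11a2, 2.06 (SE 0.44, adjusted p = 0.00854) for Col2a1 and 1.61 (SE 0.49, adjusted p = 0.0441) for Col6a6. It was 1.47 (SE 0.20) for Col9a2, 1.30 (SE 0.28) for Col9a3, 1.12 (SE 0.21) for Col11a1 and 1.08 (SE 0.26) for Col4a2. These 7 gained more after E16 than before it. Col26a1, at -1.28 (SE 0.31, adjusted p = 0.0153), gained more before it. For Col6a6 the difference was not called under either other scaling (adjusted p = 0.0537 and 0.0662) or with robust moderation (0.0949), nor without any library other than P0 library 3 (0.0522 to 0.155). Without E16 library 3 the differences of Col2a1, Col4a2 and Col26a1 were not called either (adjusted p = 0.0522, 0.0683 and 0.0589). That fit called 625 of all genes, against 1468 with all libraries. The 2 changes share the E16 libraries, with opposite signs.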

How the results depend on the processing

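No called member changed direction under the alternatives run. Members that were not called did so in 22 instances, none of them called there. Scaled to the same total, Col4a2 had a log2 fold change of -0.06 in the sort and 0.01 from E14 to E16. Over leave-one-out settings the log2 fold changes in the sort ranged from -0.04 to 0.33 for Col11a2, -0.05 to 0.37 for Col1a1, -0.17 to 0.7 for Col20a1 and -0.04 to 0.09 for Col4a2. With age they ranged from -0.18 to 0.1 for Col4a2 and -0.03 to 0.35 for Col6a5 from E14 to E16, from -0.09 to 0.28 for Col26a1 from E16 to P0, and from -0.14 to 0.21 for Col12a1, -0.16 to 0.4 for Col2a1 and -0.02 to 0.13 for Lamc1 from E14 to P0. The difference between the intervals ranged from -0.3 to 0.24 for Col25a1. With a minimum mean of 50, which tests fewer genes, 25 members were called in the sort and 20 were lower. That filter left 4243 calls over all genes (1909 higher), against 5599 (2313 higher). With only the 2 ages compared, 5 members fell from E14 to E16 (3473 of all genes called, against 3557). Over leave-one-out settings, the members called ranged from 33 to 37 in the sort (5 to 7 higher, 28 to 32 lower) and from 8 to 12 from E14 to E16 (6 to 7 higher, 1 to 5 lower). They ranged from 13 to 14 from E16 to P0, from 14 to 15 from E14 to P0, and from 4 to 9 for the difference between the intervals (4 to 8 higher, 0 to 1 lower). The low of 1 was without E14 library 3, the high of 5 without P0 library 3, the low of 4 without E16 library 3, and the 0 without E16 library 2 or 3. From E14 to E16 the first 2 fits called 2739 and 3722 of all genes, against 3557. For the difference between the intervals 625 genes were called without E16 library 3 and 1421 without E16 library 2, against 1468. Scaling to the same total moved the median of all genes in the sort from 0.02 to -0.07. Under that scaling 1883 of 3380 calls from E14 to E16 were higher, against 1642 of 3557, and 632 of 1349 calls of the difference between intervals, against 862 of 1468. Whether the numbers pair the libraries was not settled. Same-number correlations of deviations in the sort were all positive (0.367, 0.120 and 0.098), but 1 of the 3 was not over 0.1, and GFP- library 3 correlated best with GFP+ library 2 (0.229). In the series they were -0.113 to 0.245. With a replicate block 41 members were called in the sort (7 higher, 34 lower; 8466 genes in all against 5599), Col11a1 being added as higher (0.40, adjusted p = 2.87e-05) and Col24a1 as lower (-1.15, adjusted p = 0.0173), and 10, 14, 15 and 8 in the time series contrasts, as without it. edgeR called 38 in the sort. Depth limits the members near the minimum mean, whose groups hold few reads.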

Other observations

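Circular RNAs from these genes were rare. In the time series 3 of 7528 circular RNAs came from member genes, 2 from Col25a1 and 1 from Col11a1, each above 0 in 1 of 9 libraries. Among 3927 circular RNAs of the GFP- sorted libraries 0 came from a member.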
